A study of Mus musculus with 38 samples.

Results

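tRNA-Val fragments are the small RNA reads that come from the tRNAs carrying valine. They were taken as every entry for a valine isoacceptor among the tRNA reads that matched the mouse genome, and an isoacceptor is the set of tRNAs with one amino acid and one anticodon. Of the 54 isoacceptors listed in these sperm libraries 3 were valine isoacceptors, named by their anticodons AAC, CAC and TAC.

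A tRNA brings its amino acid to the ribosome, where its anticodon pairs with the codon. Nucleases can cut a mature tRNA near the anticodon, and the resulting 5′ fragments are a large part of the small RNA in mature mouse sperm. Sperm gain much of this load from epididymal epithelium during maturation, and diets fed to males have been reported to alter it.

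The study asked whether the time at which male mice met a low protein diet matters for their sperm. Pregnant C57BL/6J females (C57BL6/J in the labels) received control chow with 20% protein (CT) or a protein restricted chow with 8% protein (PR), up to weaning of the pups at day 21. Their sons then received CT or PR until they were killed at 11 to 13 weeks, so that the first letters of a group name give the diet before weaning and the last letters the diet after it. Sperm that swam out of the cut epididymis of 10 CTCT, 9 CTPR, 9 PRCT and 10 PRPR males gave 1 small RNA library each, and CTCT males served as controls.

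The valine tRNA genes are spread over the genome in many near-identical copies. RefSeq placed 22 of them on mm10 (GRCm38.p6), of which 8 were AAC genes, 11 CAC genes and 3 TAC genes. They were 72 or 73 bases long. Of the AAC and CAC genes 10 lay within chr13:22015791-23446214, whereas the TAC genes were on chromosomes 19 and X. One CAC gene is shown, the only valine tRNA gene whose sequence was available here. It is n-TVcac9 at chr13:23446142-23446214 on the minus strand, written as DNA from its 5′ end with the anticodon at positions 34 to 36 in capitals:
tRNA-Val-CAC (n-TVcac9): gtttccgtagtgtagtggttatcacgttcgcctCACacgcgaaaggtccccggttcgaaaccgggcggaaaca
A 5′ fragment cut near the anticodon runs from the left end to around those capitals. The bases CCA that close a mature tRNA are not in the gene but are added afterwards.

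Each library held between 4465281 and 7612603 reads that matched the genome, and these totals equalled those in the study's list of mice in 38 of 38 libraries. In 34 libraries the listed classes summed to within 100 reads of that total, and the 4 exceptions were 1 library each of CTCT (mouse 35F2), CTCT (47I1), PRPR (08G5) and PRCT (31A3). In 31A3 the isoacceptor reads summed to 117833 above the total listed for their class, whereas 37 libraries were within 20 reads. Shares below are of the isoacceptor sum. For the littermates 47I1 and 47I2 the labels and the study's list exchange CTCT and CTPR. The labels were followed, and where the exchange moved a result it is given too. The miRNAs that mark male germ cells were present, with 10 of 10 detected, and those of epididymal epithelium (5 of 5), muscle (4 of 4) and blood cells (5 of 5) were detected too. Detected here means a mean level above 0, and the sparsest, a blood miRNA, was at 0 in 25 of 38 mice. Sperm can carry some of these miRNAs, and whether other cells contributed RNA was not tested here. The study checked the purity of its sperm by the absence of ribosomal RNA peaks and by methylation at imprinted regions.

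All 3 valine isoacceptors were found in every mouse. In rpm, reads per 1000000 reads that matched the genome, CAC averaged 6172 ± 3525 (SD, n = 38), AAC 2477 ± 1482 and TAC 481 ± 240, which made CAC the fifth, AAC the seventh and TAC the thirteenth most abundant of the 54 isoacceptors by mean level. The tRNA genes of all 3 are of like length, so these levels were compared without a length correction. CAC exceeded AAC and AAC exceeded TAC in 38 of 38 mice. These levels, ranks and this order are those of the listing of all reads. Among reads listed at the 5′ end AAC exceeded CAC in every mouse, as described below. The 4 isoacceptors above CAC were tRNA-Gly-GCC (65877 rpm), tRNA-Glu-CTC (21612 rpm), tRNA-Lys-CTT (6962 rpm) and tRNA-Gly-CCC (6774 rpm), of which the last 2 differed from CAC by less than the spread between mice.

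The level of tRNA-Val-CAC varied widely within every diet group. In CTCT sperm the lowest, median and highest levels were 1429, 5870.0 and 12094 rpm. In CTPR they were 2358, 8455 and 12887 rpm. In PRCT they were 1880.3, 3270.1 and 11737 rpm. PRPR had 2695, 5002 and 15936 rpm, with mouse 46I3 alone at the top. The groups overlapped over most of their range, with the highest median in CTPR and the lowest in PRCT. The place of CTPR rested on the labels of litter 47I. With 47I1 (5321 rpm) and 47I2 (10523 rpm) exchanged, the CTPR median became 5321 rpm and CTCT had the highest median.

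tRNA-Val-AAC also had its highest median in CTPR, but its lowest in CTCT. Its lowest, median and highest levels were 446, 1534 and 5712 rpm in CTCT. CTPR had 1309.6, 3730.5 and 5464 rpm. The median of CTPR was thus above all but 2 of the CTCT mice. PRCT had 376, 1758 and 3517 rpm, and PRPR had 654, 2131 and 4853 rpm. For tRNA-Val-TAC the values were 129, 496 and 738 rpm in CTCT, 183, 681 and 936 rpm in CTPR, 174, 339 and 885 rpm in PRCT, and 191, 391 and 1007 rpm in PRPR. As for AAC, and for CAC by the labels only, CTPR had the highest median, and every group overlapped every other.

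**Figure D1:**
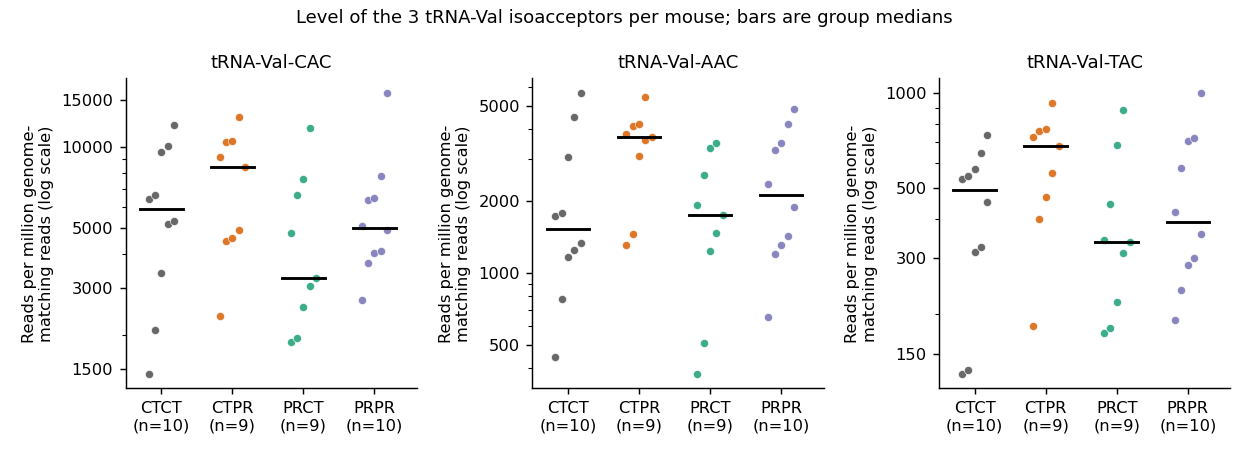
Level in rpm, relative to genome-matching reads (log scale), of each valine isoacceptor, with 1 point per mouse and a bar at the group median (10 CTCT, 9 CTPR, 9 PRCT and 10 PRPR mice). The groups overlap in all 3 panels, and the CTPR bar is the highest in each, at 8455 rpm for CAC, 3730.5 rpm for AAC and 681 rpm for TAC.

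How reads were divided between AAC and CAC depended on the listing. The files list reads once per isoacceptor and once more for those at the 5′ end of the tRNA. In the whole listing AAC made up 28.9% ± 10.3 (SD, n = 38) of the reads of AAC and CAC together, from 7.53% in CTCT mouse 57P3 to 48.3% in PRCT mouse 31A3. In the listing of 5′ ends AAC made up 86.5% ± 2.88 of the same pair, from 81.3% to 95.1%. The 2 ranges did not overlap, and the 5′ listing gave AAC more reads than its whole listing did in 38 of 38 mice. Of the 49 isoacceptors with 5′ reads 3 did so in every mouse, and others did so in some mice, the highest in 36 of 38. Summed, AAC and CAC never had more 5′ reads than reads. How a read matching both was assigned is not given in the sources used here, so each of AAC and CAC alone is uncertain, and their sum is given below where it matters.

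In the whole listing the diet means lay closer together than the mice of any one diet. AAC made up 26.4% ± 11.95 (SD, n = 10) of the pair in CTCT, 32.7% ± 10.7 (n = 9) in CTPR, 28.1% ± 10.3 (n = 9) in PRCT and 28.5% ± 8.50 (n = 10) in PRPR. CTPR and CTCT differed by 6.35 percentage points (exact permutation test, two-sided p = 0.239). Exchanging 47I1 and 47I2 raised this to 11.2 points (p = 0.0305 in the exact permutation test, or 0.0611 adjusted over the 2 listings). In the 5′ listing the groups had means between 86.2% and 87.0%, and the CTPR and CTCT means differed by 0.787 points (exact permutation test, p = 0.598).

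**Figure D2:**
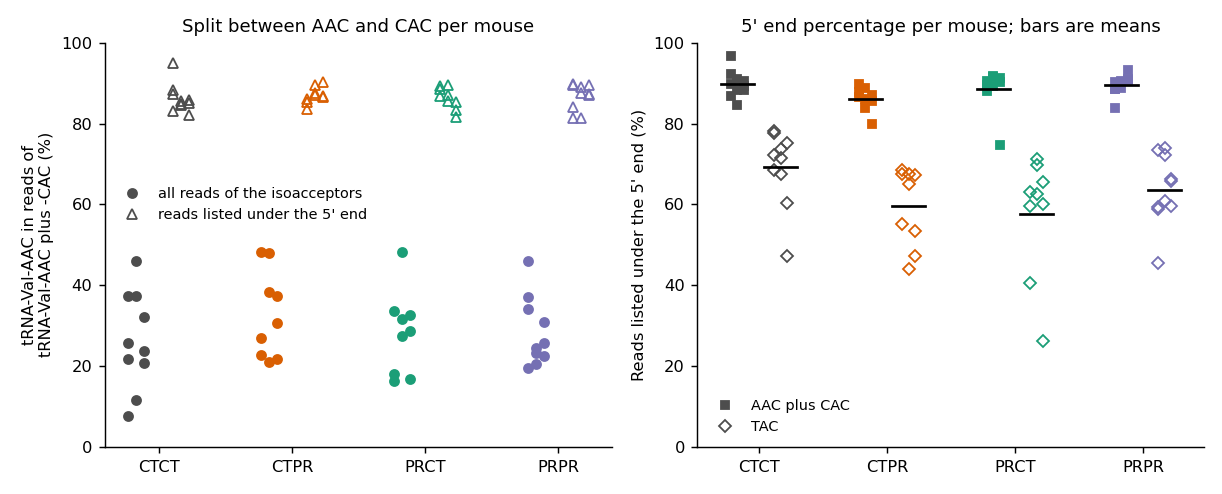
Left, the percentage of AAC in the reads of AAC plus CAC, with filled circles for all reads and open triangles for reads listed under the 5′ end. Right, the percentage of reads listed under the 5′ end for AAC plus CAC (squares) and for TAC (diamonds), with bars at group means. Each point is 1 mouse. Circles stay at or below 48.3% and triangles at or above 81.3%, and the TAC mean is highest in CTCT at 69.2%.

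Post-weaning restriction after a control diet was addressed by CTPR against CTCT. No valine isoacceptor passed the test. The log2 fold changes were 0.28 (SE 0.38, adjusted p = 0.506) for CAC, 0.65 (SE 0.41, adjusted p = 0.223) for AAC and 0.47 (SE 0.35, adjusted p = 0.293) for TAC in edgeR's quasi-likelihood test with the genome-matching reads as library size, and AAC and CAC summed gave 0.39 (SE 0.36, adjusted p = 0.351). With 47I1 and 47I2 exchanged CAC had 0.047 (SE 0.38, adjusted p = 0.956 in edgeR), AAC 0.82 (SE 0.41, adjusted p = 0.196 in edgeR) and TAC 0.45 (SE 0.35, adjusted p = 0.326 in edgeR). The 95% intervals allowed folds between 0.710 and 2.07 for CAC, 0.881 and 2.81 for AAC, and 0.847 and 2.27 for TAC. Of the 54 isoacceptors 0 were called at an adjusted p under 0.05 (0.0%), and 18 had an unadjusted p under 0.05 (33.3%), all higher in CTPR and none of them valine. That count was 11 with 47I1 and 47I2 exchanged. It was 7 in a fit that left out CTCT mouse 07C3 and the libraries with other totals except 47I1, which stayed in. With TMM scaling it was 5 (4 lower), and with summed isoacceptor reads as library size it was 2 (both lower). DESeq2 with its own size factors called 3 isoacceptors, all lower and none valine. Without CTCT mouse 45L3 edgeR called 11, again none valine, and AAC then had a log2 fold change of 0.94 (adjusted p = 0.0839 in edgeR). With litter as a block, AAC had 0.94 (SE 0.32), CAC 0.17 (SE 0.32) and TAC 0.30 (SE 0.28), at adjusted p of 0.0792, 0.662 and 0.369 in edgeR, and unadjusted calls over all isoacceptors went from 3 without the block in the same litters to 21 with it. Most tRNAs were higher in CTPR sperm. The median log2 fold change of all 54 was 0.70, with 51 above 0, and the valine isoacceptors lay at -0.43 (CAC), -0.05 (AAC) and -0.23 (TAC) relative to it. Scaling by TMM moved that median by -0.69, and CAC and TAC then had log2 fold changes below 0 (-0.46 and -0.26).

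Other measures also had a higher mean or median in CTPR, with overlapping ranges, and these differences were not tested. tRNA reads took 9.57% ± 4.08 (SD, n = 10) of genome-matching reads in CTCT and 15.9% ± 5.98 (n = 9) in CTPR. The summed miRNAs of muscle ranged from 63.5 to 3276 rpm in CTCT (median 1549) and from 71.6 to 8575 rpm in CTPR (median 2606, highest in mouse 57P1). Those of epididymal epithelium ranged from 38.9 to 1294 rpm and from 34.2 to 2227 rpm (medians 525.5 and 1044), those of germ cells from 42.8 to 1739 rpm and from 206 to 2693 rpm (medians 637 and 1529), and those of blood cells from 3.72 to 36.3 rpm and from 7.12 to 90.0 rpm (medians 24.5 and 35.1), the second range being CTPR each time. Mouse 47I1 held the highest CTCT values for muscle, epididymal epithelium and germ cells, and 47I2 the highest CTPR value for blood cells. Exchanging them would therefore alter these ranges. Of the 24 markers none was at 0 in all mice. Their part in the tRNA-Val levels was not tested. Without mouse 57P1 the unadjusted calls over all isoacceptors fell from 18 to 11.

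Restriction up to weaning alone, PRCT against CTCT, gave values below 0 for all 3 members, none past the test. The log2 fold changes were -0.37 (SE 0.38, adjusted p = 0.976) for CAC, -0.23 (SE 0.41, adjusted p = 1) for AAC and -0.14 (SE 0.35, adjusted p = 1) for TAC in edgeR, where the median of all isoacceptors was 0. The sum of AAC and CAC gave -0.33 (SE 0.36, adjusted p = 0.972 in edgeR). In this comparison 0 of 54 were called (0.0%) and 1 had an unadjusted p under 0.05 (1.85%). With summed isoacceptor reads as library size CAC was -0.66 (SE 0.28, adjusted p = 0.211 in edgeR) and TAC -0.41 (SE 0.21, adjusted p = 0.275 in edgeR), with unadjusted p of 0.0220 and 0.0539, and 8 isoacceptors, all lower, then had an unadjusted p under 0.05. Lifelong restriction, PRPR against CTCT, gave -0.03 (SE 0.37, adjusted p = 0.982) for CAC, 0.18 (SE 0.40, adjusted p = 0.914) for AAC and 0.13 (SE 0.34, adjusted p = 0.914) for TAC in edgeR, with 0 of 54 called (0.0%), 0 of 54 also at an unadjusted p under 0.05, and 0 by DESeq2 with its own size factors. The sum of AAC and CAC gave 0.03 (SE 0.35, adjusted p = 0.967 in edgeR). The AAC and TAC values turned below 0 under TMM (-0.14 and -0.18). Post-weaning restriction after a restricted start, PRPR against PRCT, gave 0.34 (SE 0.38, adjusted p = 0.902) for CAC, 0.41 (SE 0.41, adjusted p = 0.902) for AAC and 0.27 (SE 0.35, adjusted p = 0.902) for TAC in edgeR, again with 0 of 54 called (0.0%) and 0 at an unadjusted p under 0.05. The sum of AAC and CAC gave 0.36 (SE 0.36, adjusted p = 0.913 in edgeR). Under TMM the AAC and TAC values were -0.029 and -0.014.

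**Figure D3:**
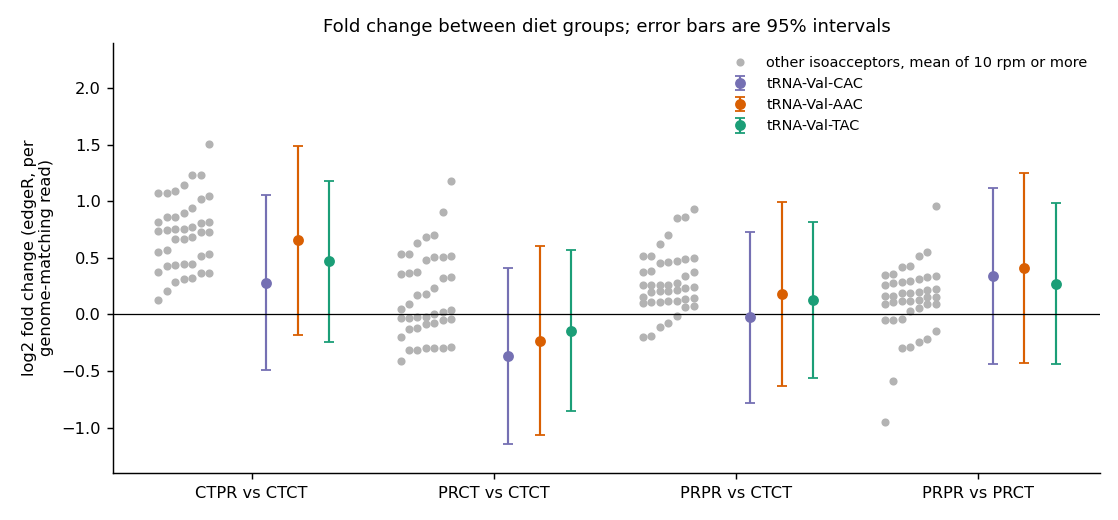
log2 fold change per genome-matching read in 4 comparisons, with grey points for the other isoacceptors that averaged at least 10 rpm and coloured points with 95% intervals for CAC, AAC and TAC. Every valine interval crosses 0, and in CTPR against CTCT the grey points also lie above 0.

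The response to the post-weaning diet did not differ detectably between sons of CT and PR dams. The difference of the CTPR against CTCT and PRPR against PRCT changes was -0.06 (SE 0.54, adjusted p = 1.00) for CAC, 0.24 (SE 0.58, adjusted p = 0.918) for AAC and 0.20 (SE 0.49, adjusted p = 0.918) for TAC on the log2 scale in edgeR, while 0 of 54 isoacceptors were called (0.0%) and 3 had an unadjusted p under 0.05 (5.56%). For the sum of AAC and CAC it was 0.02 (SE 0.51) in edgeR. Scaling within tRNA reads moved CAC to -0.52 with TMM, -0.57 with DESeq2's own factors and -0.75 (SE 0.39, adjusted p = 0.559 in edgeR) with summed isoacceptor reads, and TAC to -0.24, -0.27 and -0.46.

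The share of each member in all tRNA isoacceptor reads sets each member against the total of tRNA reads. All valine isoacceptors together made up 9.29% ± 3.37 (SD, n = 10) of tRNA reads in CTCT, 7.64% ± 2.37 (n = 9) in CTPR, 6.27% ± 2.34 (n = 9) in PRCT and 7.55% ± 2.05 (n = 10) in PRPR. The CAC share had its lowest, median and highest values at 2.73%, 6.30% and 15.0% in CTCT, 2.64%, 5.00% and 7.08% in CTPR, 1.03%, 4.13% and 7.43% in PRCT, and 3.497%, 4.74% and 8.31% in PRPR. CTCT mouse 57P3 stood apart at the top. The AAC share ran over 0.938%, 1.94% and 3.48% in CTCT, 0.703%, 2.22% and 4.20% in CTPR, 0.206%, 1.79% and 2.80% in PRCT, and 0.905%, 2.03% and 3.17% in PRPR. The TAC share ran over 0.235%, 0.487% and 0.629% in CTCT, 0.272%, 0.379% and 0.503% in CTPR, 0.138%, 0.378% and 0.521% in PRCT, and 0.245%, 0.407% and 0.626% in PRPR. CTCT had the highest median for CAC and TAC but not for AAC.

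No share passed the test in any comparison. The mean CAC share was 6.69% ± 3.48 (SD, n = 10) in CTCT and 4.23% ± 1.82 (n = 9) in PRCT, lower by 2.46 points (exact permutation test, two-sided p = 0.0619, adjusted p = 0.528 over 54 isoacceptors), with 8 of 9 PRCT mice below the CTCT median. The TAC share was 0.460% ± 0.123 against 0.345% ± 0.113, also with 8 of 9 PRCT mice below the CTCT median (exact permutation test, p = 0.0511, adjusted p = 0.528), and AAC gave 2.14% ± 0.978 against 1.69% ± 0.779 (exact permutation test, p = 0.293, adjusted p = 0.711). In PRCT against CTCT 0 of 54 shares were called (0.0%) and 2 had an unadjusted p under 0.05 (3.7%), neither of them valine. AAC and CAC summed, an alternative chosen after the data were seen, was lower in PRCT by 2.90 points (exact permutation test, p = 0.0384, adjusted p = 0.507). Without CTCT mouse 57P3 the CAC difference was -1.53 points, and with 47I1 and 47I2 exchanged it was -2.75 points (p = 0.0293 in the exact permutation test, adjusted p = 0.495).

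In CTPR against CTCT the CAC share was lower by 1.85 points (exact permutation test, p = 0.165, adjusted p = 0.844), or differed by -2.46 points with 47I1 and 47I2 exchanged (p = 0.0416 in that test, adjusted p = 0.846), and the TAC share differed by -0.0723 points (p = 0.138 in the exact permutation test, adjusted p = 0.844), with 7 and 8 of 9 CTPR mice below the CTCT median. The AAC share was higher by 0.273 points (exact permutation test, p = 0.572, adjusted p = 0.917). Of the 54 shares 0 were called (0.0%) and 0 had an unadjusted p under 0.05 in this test, whereas 7 had one when littermates were paired. The 10 PRPR and 10 CTCT mice differed by -1.54 points for CAC, -0.134 for AAC and -0.0595 for TAC, with unadjusted p of 0.238, 0.718 and 0.290 (permutation test), and PRPR against PRCT by 0.916, 0.308 and 0.0552 points, with unadjusted p of 0.277, 0.363 and 0.327 (exact permutation test). Leaving 57P3 out lowered the CAC differences from CTCT to -0.923 points in CTPR and -0.618 points in PRPR, and leaving out PRCT mouse 59L1, the lowest of that group in all 3 shares, lowered the PRPR against PRCT differences to 0.515 points for CAC, 0.122 for AAC and 0.0293 for TAC.

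**Figure D4:**
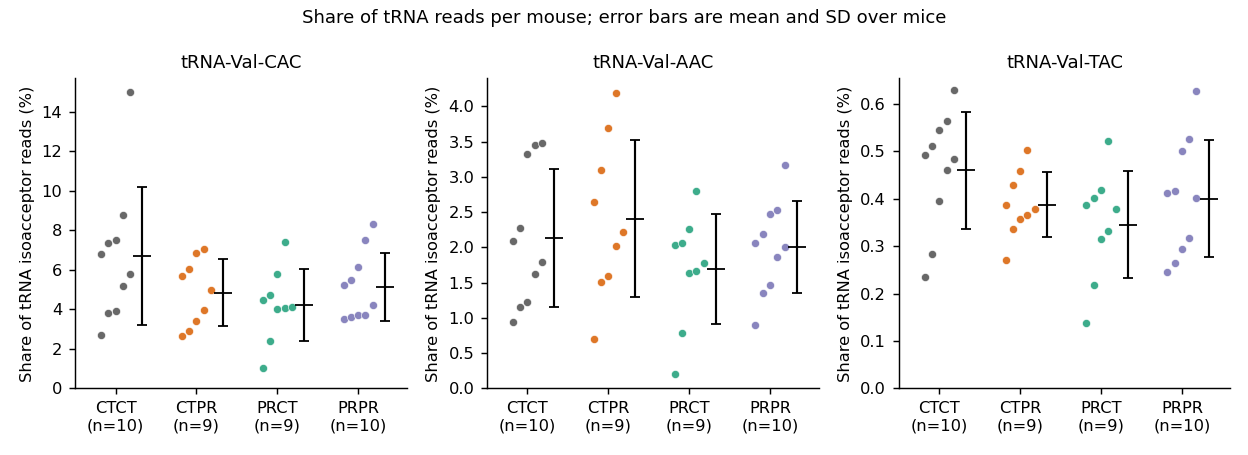
Share of tRNA isoacceptor reads in percent for each valine isoacceptor, 1 point per mouse, with error bars for the mean and SD of each group. The CAC and TAC means are highest in CTCT at 6.69% and 0.460%, and 1 CTCT mouse reaches 15.0% for CAC.

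Littermates allowed a comparison within families, since most litters gave a son to both post-weaning diets. In 8 litters of CT dams the TAC share was lower in the PR-fed son than in his CT-fed brother in 8 of 8 litters. The differences ran from -0.292 points in litter 35F to -0.00265 points in litter 53M, with a mean of -0.0929 ± 0.101 (SD, n = 8). The two-sided exact sign-flip test gave p = 0.00781, the smallest that 8 pairs allow, and an adjusted p of 0.281 over 54 isoacceptors, so that it failed the correction. TAC was the only isoacceptor that was lower in every litter (1.85% of 54). Exchanging 47I1 and 47I2 turned the sign of 1 of them, the -0.0415 points of litter 47I, and left a mean of -0.0825 points (p = 0.0547 in the exact sign-flip test, adjusted p = 0.328). In the 9 litters of PR dams the TAC share was higher in 6 and lower in 3 PR-fed sons, and averaged 0.0644 points (p = 0.426 in the exact sign-flip test, adjusted p = 0.857). The 2 mean differences of TAC differed by -0.157 points (exact permutation test, p = 0.0668, adjusted p = 0.326), in an alternative chosen after the data were seen. In the same alternative CAC differed by -3.22 points (exact permutation test, p = 0.0341, adjusted p = 0.254) and AAC by 0.388 points (p = 0.509 in that permutation test), and with 47I1 and 47I2 exchanged CAC differed by -3.95 points (p = 0.00502, adjusted p = 0.0677, exact permutation test) and TAC by -0.147 points (p = 0.0936).

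The CAC share was lower in 6 of 8 CTPR sons by a mean of 2.14 ± 3.26 points (exact sign-flip test, p = 0.109, adjusted p = 0.492), the lowest difference being -7.91 points in litter 57P, and with 47I1 and 47I2 exchanged it was lower in 7 of 8, by -2.87 ± 2.53 points on average (p = 0.0156 in the exact sign-flip test, adjusted p = 0.211). It was higher in 6 of 9 PRPR sons, by 1.08 ± 2.44 points (exact sign-flip test, p = 0.219, adjusted p = 0.656). AAC was higher in 5 of 8 and 5 of 9 litters. Per genome-matching read the direction differed. On the log2 rpm scale TAC was higher in 7 of 8 CTPR sons by 0.29 ± 0.45 (exact sign-flip test, p = 0.109, adjusted p = 0.211), AAC in 5 of 8 by 0.94 ± 1.27 (exact sign-flip test, p = 0.0703, adjusted p = 0.201; with 47I1 and 47I2 exchanged, 1.07 in 6 of 8, p = 0.0391, adjusted p = 0.290) and CAC in 5 of 8 by 0.16 ± 0.82 (exact sign-flip test, p = 0.609, adjusted p = 0.715). The sum of AAC and CAC, chosen after the data were seen, was higher in 6 of 8 CTPR sons by 0.35 ± 0.74 (exact sign-flip test, p = 0.227, adjusted p = 0.316). In PR dams' litters that sum was higher in 7 of 9 PRPR sons by 0.41 ± 0.72 (exact sign-flip test, p = 0.133, adjusted p = 0.958). Over all 54 isoacceptors 12 had an unadjusted p under 0.05 on this scale in CTPR against CTCT (22.2%), none of them valine, and 0 were called (0.0%). In PR dams' litters each valine isoacceptor was higher in 7 of 9 PRPR sons, with mean log2 differences of 0.45 ± 0.80 (CAC), 0.37 ± 0.97 (AAC) and 0.29 ± 0.92 (TAC) and adjusted p of 0.937 for each (exact sign-flip test).

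**Figure D5:**
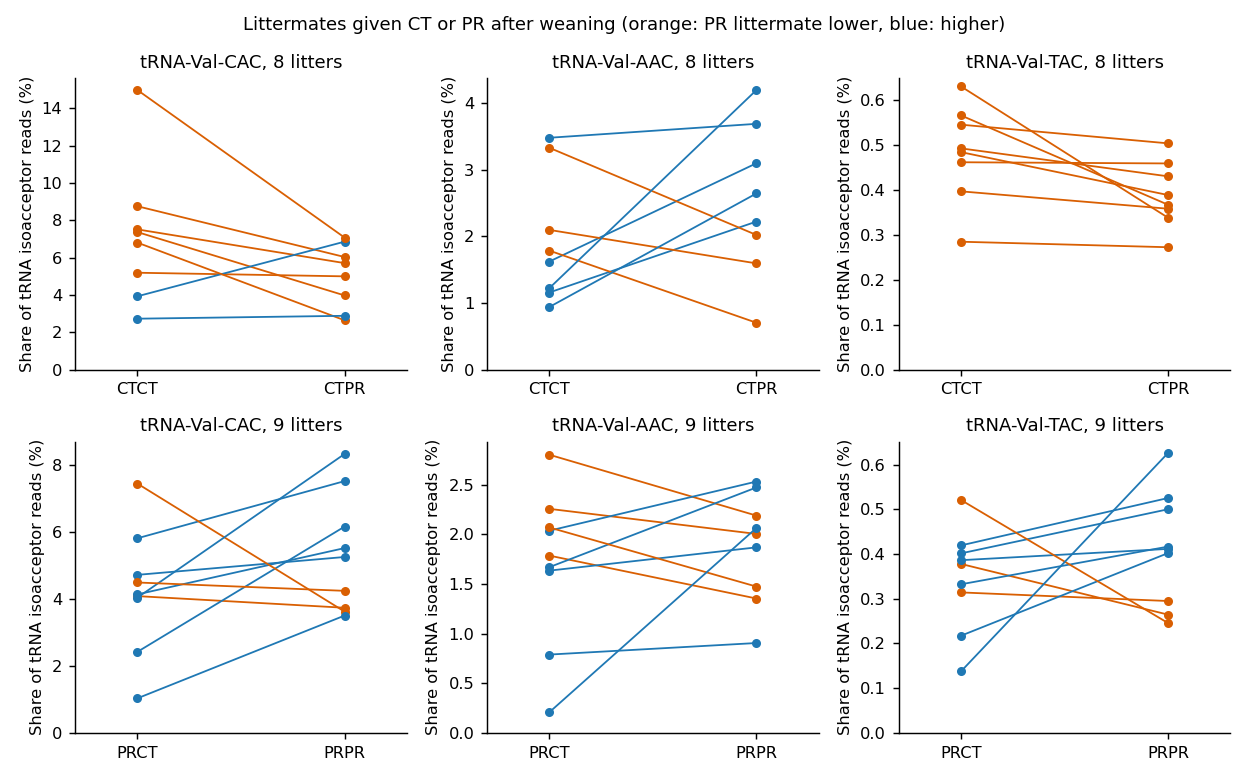
Share of tRNA isoacceptor reads in percent for brothers joined by a line, in 8 litters of CT dams (top) and 9 litters of PR dams (bottom), orange where the PR-fed brother is lower and blue where he is higher. All 8 lines for TAC in the top row fall, and 6 of 9 rise in the bottom row.

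The 5′ end supplied most valine reads. For AAC and CAC summed, 88.6% ± 3.77 (SD, n = 38) of reads were listed under the 5′ end, with group means of 89.8% ± 3.24 (n = 10) in CTCT, 86.2% ± 2.94 (n = 9) in CTPR, 88.6% ± 5.36 (n = 9) in PRCT and 89.5% ± 2.47 (n = 10) in PRPR. For TAC the percentage was lower than for the pair in 38 of 38 mice, with group means of 69.2% ± 9.37 in CTCT, 59.5% ± 9.67 in CTPR, 57.6% ± 14.7 in PRCT and 63.6% ± 8.72 in PRPR. The lowest, median and highest TAC values were 47.2%, 71.9% and 78.1% in CTCT, 43.9%, 65.1% and 68.5% in CTPR, 26.3%, 62.5% and 71.1% in PRCT, and 45.5%, 63.2% and 74.0% in PRPR. All 9 CTPR mice and all 9 PRCT mice were below the CTCT median, or 8 of 9 in each group with 47I1 and 47I2 exchanged.

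These differences also failed the correction. TAC was lower by 9.75 points in CTPR (exact permutation test, p = 0.0407, adjusted p = 0.330 over 44 isoacceptors) and by 11.6 points in PRCT (exact permutation test, p = 0.0486, adjusted p = 0.426). With 47I1 and 47I2 exchanged these became -9.09 and -11.3 points, at unadjusted p of 0.0577 and 0.0550 in the exact permutation test. In CTPR 6 of 44 isoacceptors had an unadjusted p under 0.05 (13.6%), 4 of them lower (9.09%), and in PRCT 4 did (9.09%), all lower. Without CTCT mouse 07C3, and with AAC and CAC summed, 8 of 43 did in PRCT, 3 of them higher, and 2 isoacceptors, neither of them valine, were called. A whole group below the CTCT median was seen for 1 of 44 isoacceptors in CTPR (2.27%), which was TAC, and for 3 of 44 in PRCT (6.82%). PRPR differed from CTCT by -5.66 points (permutation test, p = 0.179, adjusted p = 0.787). Among littermates TAC was lower in 8 of 8 CTPR sons, by -9.06 points on average (exact sign-flip test, p = 0.00781, adjusted p = 0.168), or in 7 of 8 by -8.28 points with 47I1 and 47I2 exchanged (p = 0.0234, adjusted p = 0.210), and 5 of 9 PRPR sons were higher. In that sign-flip test of CTPR sons, run with AAC and CAC summed, 6 of 43 isoacceptors had an unadjusted p under 0.05, 1 of them higher. With the exchange 9 of 43 did, and 0 were called either way. Without PRCT mouse 59L1 PRCT differed by -7.71 points (p = 0.105 in the exact permutation test). The CTPR difference was -8.98 points without CTPR mouse 57P1 and -8.76 without CTCT mouse 07C3, each with p = 0.0697 in the exact permutation test. AAC and CAC summed, chosen after the data were seen, was lower in CTPR by 3.63 points (exact permutation test, p = 0.0164, adjusted p = 0.235), or by 4.29 points with 47I1 and 47I2 exchanged (exact permutation test, p = 0.00202, adjusted p = 0.0870), yet higher in 3 of 8 CTPR sons than in their brothers, or in 2 of 8 with the exchange. The total of 5′ tRNA reads was 85.7% ± 2.70 of isoacceptor reads in CTCT and 83.9% ± 2.94 in CTPR.

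Few valine reads were listed at the 3′ end. TAC had a median of 54 such reads per library (3 to 170), AAC 67.5 (0 to 317) and CAC 5 (0 to 27). Reads with a CCA end that matched the genome were found for TAC in 36 of 38 mice, for AAC in 21 and for CAC in 1, at medians of 47.5, 6.5 and 0 reads. The 1 CAC library held 51 reads and was PRCT mouse 39F5. None of these features passed the test in any comparison (edgeR, 185 tRNA features). In CTPR against CTCT the log2 fold changes at the 3′ end were 1.05 (SE 0.83) for CAC, 0.88 (SE 0.80) for AAC and 0.78 (SE 0.45) for TAC.

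The levels of the 3 members were correlated across mice on the rpm scale. Pearson's r was 0.67 for AAC with CAC (Spearman's rho 0.63), 0.73 for AAC with TAC (rho 0.71) and 0.70 for CAC with TAC (rho 0.66), each over 38 mice and on log2 rpm, and the adjusted permutation p was 2e-05 for the first and 1.5e-05 for the others over 3 pairs, near the smallest that 100000 permutations can give. Without the 2 mice farthest from the median r was 0.58, 0.67 and 0.63. Within diet groups r ranged from 0.53 to 0.78, from 0.39 to 0.87 and from 0.63 to 0.76 in the same order. As shares of tRNA reads the pairs had r of 0.11 (rho 0.18), 0.30 (rho 0.31) and 0.25 (rho 0.21), with adjusted permutation p of 0.497, 0.187 and 0.187, and r of -0.04, 0.19 and 0.30 without the 2 farthest mice. The levels in rpm share the total of tRNA reads, which differed between mice from 2.75% to 24.7% of genome-matching reads. The permutations for these correlations took all 38 mice as independent and ignored litter and diet group.

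The isoacceptors most like each member were found by Spearman's rho over 38 mice, given as a description. For AAC in rpm they were tRNA-Val-TAC (0.71), tRNA-Lys-TTT (0.70) and tRNA-Cys-GCA (0.70), beside a median of 0.56 over all others. For CAC they were tRNA-Leu-CAG (0.81), tRNA-Leu-TAG (0.77) and tRNA-Gln-TTG (0.77), beside a median of 0.56. For TAC they were tRNA-Lys-CTT (0.83), tRNA-Thr-TGT (0.83) and tRNA-Met-CAT (0.82), beside a median of 0.68. In shares tRNA-Leu-CAG, tRNA-Gln-TTG and tRNA-Leu-TAG again led for CAC (0.55, 0.49 and 0.46), tRNA-Lys-CTT, tRNA-Cys-GCA and tRNA-Thr-TGT for TAC (0.57, 0.51 and 0.49), and tRNA-Cys-GCA, tRNA-Met-CAT and the sparse tRNA-Sup-TTA for AAC (0.40, 0.36 and 0.33).

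Leucine and isoleucine, the other branched-chain amino acids, have 8 isoacceptors here. In CTPR against CTCT their median log2 fold change was 0.53, with 7 of 8 above 0 and 3 with an unadjusted p under 0.05, beside 0.70 over all 54. The highest was tRNA-Ile-AAT at 0.89 (SE 0.35, adjusted p = 0.112 in edgeR), and the lowest, tRNA-Ile-GAT, held too few reads for a fold. In PRCT their median was -0.12, and in PRPR 0.26 against CTCT and 0.30 against PRCT. The smallest p in CTPR belonged to tRNA-His-GTG, with a log2 fold change of 1.09 (SE 0.36, adjusted p = 0.112 in edgeR). The smallest in PRCT belonged to tRNA-Ala-TGC (1.18, SE 0.52, adjusted p = 0.976 in edgeR).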

How the data were processed

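Small RNA libraries of 38 sperm samples were analysed. The authors mapped reads with SPORTS 1.0 to mm10 (UCSC) and to tRNA, miRNA, rRNA and piRNA databases and deposited the read counts of each class and sub-class per mouse; how reads matching several tRNAs were divided is not given in the sources used here. Counts of each isoacceptor were taken as listed, and 5′, 3′ and CCA entries were kept apart. They were tested with edgeR 4.0.16 (quasi-likelihood) in R 4.3.3 over all 4 groups, with genome-matching reads as library size and every isoacceptor with at least 1 read. p-values were adjusted by Benjamini-Hochberg over all isoacceptors. Shares of tRNA isoacceptor reads and 5′ percentages were compared by permutation of mice, exact where a group held fewer than 10 and otherwise with 100000 permutations, and littermates by sign flips on log2(rpm + 0.1) or shares. The edgeR test was run on simulated data, where it recovered 97.5% of isoacceptors changed by a log2 of 2 among 54 for CTPR against CTCT. Changes as small as those of the valine isoacceptors were not simulated. DESeq2 1.42.0, other scalings, left-out mice and a litter block were alternatives.

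Groups follow the labels. Litters follow the mouse names, of which the first 3 characters mark the litter in the study's list. Same-litter mice deviated together in 16 of 17 pairs (r over 0.1 across 45 isoacceptors, median 0.49), and in tRNA-Val by r of 0.41 (AAC), 0.58 (CAC) and 0.55 (TAC) on log2 rpm over 17 pairs, but by r of 0.069, 0.32 and -0.22 in shares. Brothers share a dam, so mice of different groups are not fully independent.

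The members and lists were chosen with earlier results of these data known. The text names the 3 members and their ends, the 3 isoacceptors most like each, the 5 most abundant, the largest and smallest of the leucine and isoleucine list, and the smallest p in a comparison.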

Additional observations from a re-analysis of the deposited data

Results flagged for a closer look

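In 6 of the 40 groups of mice examined, 1 value stood farther from its neighbours than Dixon's 95% limit allows, and chance flags about 1 in 20. The CAC level of PRPR mouse 46I3 was 15936 rpm, with the next at 7791 rpm. The CAC share of CTCT mouse 57P3 was 15.0%, with the next at 8.76%. Among the 5′ percentages of AAC and CAC summed, PRCT mouse 59L1 was at 74.6% with its nearest neighbour at 88.0%, and PRPR mouse 40H3 at 83.8% with its nearest at 88.4%. The same mouse 40H3 had a TAC 5′ percentage of 45.5%, below the next at 59.0%. In CTCT mouse 07C3 AAC made up 95.1% of the 5′ reads of the pair, with the next at 88.3%. The causes were not tested.

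Reads with a CCA end that did not match the genome lay outside the comparisons above. TAC had the most of the 3 members there, at 44.0 ± 21.5 rpm (SD, n = 9) in CTPR, above the 29.2 ± 7.77 rpm (n = 10) of CTCT, with all 9 values of CTPR over the median of CTCT (exact permutation test, p = 0.0134, adjusted p = 0.148 over 45 isoacceptors). Of all isoacceptors 9 had an unadjusted p under 0.05 in this class (20.0%). PRPR mice had 41.6 ± 17.4 rpm (n = 10), with 8 of 10 over the median of CTCT (permutation test, p = 0.0385, adjusted p = 0.579). PRCT mice had 32.9 ± 8.69 rpm (n = 8, 1 mouse without this class left out), with 7 of 8 over that median (exact permutation test, p = 0.357, adjusted p = 0.829).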

How the results depend on the processing

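The correlations aside, no valine value had an adjusted p under 0.05 in 908 fits and alternatives of 58 values. The lowest were 0.0677, for the interaction of CAC by littermate pairing in share with 47I1 and 47I2 exchanged, and 0.0792, for AAC in CTPR against CTCT with litter as a block. Apart from left-out mice, 399 alternatives, those of the correlations included, kept direction and side of the threshold, and the exceptions follow. Their causes were not tested. The alternatives on the sum of AAC and CAC, on left-out named mice on littermate differences in share or with the exchange, and on DESeq2 for the interaction were chosen after the data were seen. Scaling decided several directions, since TMM, summed isoacceptor reads as library size and DESeq2's own factors moved the median of all isoacceptors in CTPR against CTCT by -0.69, -0.70 and -0.71. In that order CAC was then -0.46, -0.47 and -0.48 and TAC -0.26, -0.25 and -0.29 in CTPR against CTCT, and AAC -0.14, -0.094 and -0.11 and TAC -0.18, -0.20 and -0.16 in PRPR against CTCT. For PRPR against PRCT TMM and DESeq2 gave AAC -0.029 and -0.028 and TAC -0.014 and -0.024. The sum of AAC and CAC was -0.28 (CTPR) and -0.30 (PRPR) against CTCT with isoacceptor reads as library size, and -0.033 (PRPR) with 47I1 and 47I2 exchanged. DESeq2 called 3 isoacceptors in CTPR against CTCT where edgeR called 0. The interaction became -0.068 for AAC with isoacceptor reads as library size, and for TAC -0.24 with TMM, -0.46 with isoacceptor reads, -0.27 with DESeq2, -0.016 by littermate pairing with 47I1 and 47I2 exchanged and -0.157 points by pairing in share (-0.147 with the exchange). That of the sum became -0.55 with isoacceptor reads and -0.095 with the exchange. Between littermates CAC was -2.14 points and TAC -0.0929 points in share (-2.87 and -0.0825 with the exchange), and CAC -0.087 in log2 rpm with the exchange. Taken as rpm instead of a percentage, the 5′ end differed in CTPR against CTCT by 1775 (AAC) and 66.4 (TAC), in PRCT against CTCT by -328 (CAC), in PRPR against CTCT by 249 (AAC), -99.5 (CAC) and 1.28 (TAC), and in PRPR against PRCT by 1458 (AAC). The 5′ percentage of the sum turned to 0.517 points in PRCT against CTCT and -0.751 in PRPR against PRCT without 59L1, and to 0.528 in PRPR against CTCT without 07C3. In share the correlations were 0.11 (AAC with CAC), 0.30 (AAC with TAC) and 0.25 (CAC with TAC). Leaving out each mouse in turn turned the sign in 13 of 462 fits: AAC ran from -0.40 to 0.056 in PRCT against CTCT, CAC from -0.31 to 0.13 and TAC from -0.059 to 0.24 in PRPR against CTCT, and the AAC share from -0.267 to 0.0153 points in PRPR against CTCT. Calls over all isoacceptors in CTPR against CTCT ran from 0 to 11, the latter without CTCT mouse 45L3.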
